A study of Mus musculus with 32 samples.

Results

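The 8 genes described here encode the core of PI3K and AKT signaling in mouse MLL-Af4 leukemia cells: the kinases Akt1 and Akt2, the class I PI3K catalytic subunits Pik3ca, Pik3cb, Pik3cd and Pik3cg, the regulatory subunit Pik3r1 and the lipid phosphatase Inpp5d. They were chosen by symbol among 23620 genes listed in the RNA tables of both cell types, and eCLIP peaks were assigned to them by Ensembl gene ID. The series holds 32 samples from 2 cell populations without treatment. Lin- cells were lineage-depleted bone marrow cells transduced with a retrovirus carrying MLL-flag-Af4 and selected with G418, and CD11b+ cells were selected with a CD11b antibody from splenic tumors of mice transplanted with MLL-Af4 cells. RNA-seq compared WT and Igf2bp3 knockout (I3KO) cells, with 3 libraries of each genotype per cell type, and all of these cells carried MLL-Af4. IGF2BP3 eCLIP was performed on WT/MLL-Af4 cells, with 3 biological and 3 technical libraries from Lin- cells and 2 biological and 2 technical libraries from CD11b+ cells, each with a size-matched input (smInput). The knockout is a germline deletion carried by every cell of an I3KO donor, whereas the transplant recipients were mice of another strain without this deletion. MLL-Af4 is driven by a viral promoter. In the paper's transplants, donors and recipients were 8-week-old female mice. The sources used here do not give the number of animals behind each library or their age at collection. Selection on CD11b does not separate leukemic from host cells. The names of the CD11b+ eCLIP libraries begin with bm, so whether these came from spleen was not settled.

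In this pathway, a class I PI3K couples a regulatory subunit to a catalytic subunit and phosphorylates a membrane phosphoinositide after receptor activation. The lipid product recruits AKT to the membrane, where it is activated, and Inpp5d, also called SHIP1, removes a phosphate from the same lipid. Pik3cd and Pik3cg are the leukocyte-enriched catalytic subunits, whereas Pik3ca and Pik3cb are widely expressed. IGF2BP3 is an oncofetal RNA-binding protein known for binding CA-rich RNA. In eCLIP, protein and RNA are crosslinked by UV light, IGF2BP3 is immunoprecipitated, and the bound RNA fragments are sequenced. A peak is a place where such fragments pile up.

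Before the smInput filter, each Lin- eCLIP library held 5455 to 11606 peaks and each CD11b+ library 8566 to 11771. After it, 4040 to 10042 and 7085 to 10054 remained. smInput libraries held 217 to 1885 peaks. The last number in each peak name, with a minimum of 3, was read here as the reads of that peak. Lin- libraries 2 (biological) and 5 (technical) stood apart from the other 4 Lin- libraries. Over all genes, 39.4% and 41.6% of their filtered peaks were exonic, against 17.9% to 23.0% in the others, so results on Lin- sites are given with and without them. The filtered peaks of every eCLIP library overlapped no peak of exactly 2 smInput libraries, that of its own number and 1 other, while 0.127% to 8.96% of them overlapped the peaks of each remaining smInput library of the cell type. Libraries 1 and 4, 2 and 5, and 3 and 6 of the Lin- cells shared the same inputs in this way, as did libraries 1 and 3, and 2 and 4, of the CD11b+ cells. In the RNA tables, Kit, Flt3, Cd34 and Meis1, which mark progenitors, had means of 2452 to 9396 in the Lin- table and 356 to 1291 in the CD11b+ table, and the myeloid genes Lyz2, S100a8, Csf1r, Ly6c2 and Fcgr3 were at 1816 to 20990 in Lin- and 7492 to 72146 in CD11b+ cells. Myb, also a progenitor gene, went the other way, with 22675 and 37516. Itgam, which encodes CD11b itself, had a mean of 17.0 in the CD11b+ table (percentile 41.8) and was not listed in the Lin- table, so the RNA of the defining marker was low. Markers of B cells were at 1.1 to 5.77 in Lin- and 69.1 to 146 in CD11b+ cells, and hemoglobin Hba-a1 at 5.85 and 1268. Their part in the results was not tested.

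IGF2BP3 peaks on these genes fell into different places in the 2 cell types. Among sites of all genes found in any library, 66.5% in Lin- and 21.9% in CD11b+ cells lay within 100 nt of a splice site. A split in this direction was thus present over all genes. On these genes in Lin- cells, 12 of the 15 sites found in at least 2 biological libraries lay within 100 nt of a splice site. No share of all genes is given here for that rule. A site here is a stretch of overlapping or touching filtered peaks of 1 cell type, numbered from the 5′ end of the gene. The sequences of 9 of these 12 sites are shown because they carry this pattern: 8 of them run from the end of an intron, which closes with ag, into the first bases of the next exon. They were read from the GRCm38 (mm10) RefSeq genome, 5′ to 3′ along the RNA, and capitals mark exon bases of GENCODE M21. Each was found in at least 2 biological Lin- libraries.
Akt1 site 3, chr12:112657183-112657250, minus strand: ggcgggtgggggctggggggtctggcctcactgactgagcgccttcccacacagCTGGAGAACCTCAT
Akt2 site 3, chr7:27637034-27637099, plus strand: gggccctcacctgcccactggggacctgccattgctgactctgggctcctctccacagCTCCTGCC
Pik3ca site 4, chr3:32453811-32453872, plus strand: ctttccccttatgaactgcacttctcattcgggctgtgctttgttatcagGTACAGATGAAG
Pik3cd site 5, chr4:149659917-149659982, minus strand: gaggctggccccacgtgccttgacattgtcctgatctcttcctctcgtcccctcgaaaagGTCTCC
Pik3cg site 4, chr12:32194815-32194867, minus strand: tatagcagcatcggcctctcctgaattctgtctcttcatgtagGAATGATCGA
Pik3r1 site 10, chr13:101685056-101685124, minus strand: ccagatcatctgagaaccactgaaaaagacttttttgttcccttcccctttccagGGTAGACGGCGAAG
Inpp5d site 8, chr1:87683697-87683745, plus strand: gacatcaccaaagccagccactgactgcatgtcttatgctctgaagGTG
Inpp5d site 11, chr1:87709570-87709621, plus strand: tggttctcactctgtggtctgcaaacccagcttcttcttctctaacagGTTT
Inpp5d site 14, chr1:87717617-87717681, plus strand: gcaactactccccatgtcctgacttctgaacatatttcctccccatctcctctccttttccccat
The last of these stops short of the exon.

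In CD11b+ cells, all 8 sites found in both biological libraries lay over 1000 nt from a splice site, and 7 were over 50% masked repeat. The 5 that hold CA repeats or their reverse complement, TG repeats, are shown, since these recur among the sites, and the other 3 hold neither. Here capitals mark CACA.
Akt1 site 2, chr12:112666985-112667118, minus strand: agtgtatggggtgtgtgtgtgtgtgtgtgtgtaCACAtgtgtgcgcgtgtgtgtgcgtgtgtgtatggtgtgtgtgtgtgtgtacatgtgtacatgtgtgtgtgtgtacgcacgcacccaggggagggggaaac
Pik3cg site 3, chr12:32189415-32189475, minus strand: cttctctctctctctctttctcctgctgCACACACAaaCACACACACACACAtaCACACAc
Pik3r1 site 2, chr13:101743481-101743619, minus strand: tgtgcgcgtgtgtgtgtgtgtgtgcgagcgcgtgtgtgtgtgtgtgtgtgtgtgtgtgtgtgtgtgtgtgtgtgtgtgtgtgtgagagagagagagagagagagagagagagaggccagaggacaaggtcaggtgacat
Pik3r1 site 4, chr13:101735240-101735324, minus strand: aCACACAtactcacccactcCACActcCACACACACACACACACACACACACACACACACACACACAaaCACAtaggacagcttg
Pik3r1 site 5, chr13:101734971-101735080, minus strand: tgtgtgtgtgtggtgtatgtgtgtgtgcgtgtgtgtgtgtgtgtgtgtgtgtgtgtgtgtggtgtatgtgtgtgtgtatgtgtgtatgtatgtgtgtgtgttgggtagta
Sites of both cell types overlapped at some of these repeats, as at Pik3r1 site 4 and at Inpp5d site 6 of the Lin- cells, chr1:87675809-87675882, plus strand: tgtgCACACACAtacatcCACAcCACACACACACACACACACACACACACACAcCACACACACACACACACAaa

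All 8 genes were expressed in both populations. The value given is the authors' mean normalized count over both genotypes, which has no SD here, and the 2 tables were normalized separately. The highest means in Lin- cells were those of Inpp5d (10444), Pik3cd (8896), Akt1 (7239) and Pik3cg (6097), each above the mean of at least 96.7% of the 26560 genes listed. Pik3r1 had 4292, Akt2 2585, Pik3ca 2525 and Pik3cb 1436. In CD11b+ cells, Akt1 had 6604, Inpp5d 6321, Pik3cd 6213, Pik3cg 4808, Akt2 2751, Pik3r1 2695, Pik3cb 1127 and Pik3ca 1115. Per kb of exon, the order of these levels was Akt1 (2691 in Lin-, 2455 in CD11b+), Inpp5d (2097, 1269), Pik3cd (1672, 1168) and Pik3cg (980, 773) in both populations, with Pik3r1 (568, 356), Akt2 (535, 570), Pik3ca (278, 123) and Pik3cb (222, 174) below. The leukocyte-enriched catalytic subunits were thus at a higher level per kb than the widely expressed ones in both tables. Whether neighbours in this order differ beyond replicate spread was not tested, and in bulk samples fewer cells of a type and less RNA per cell cannot be told apart.

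**Figure D1:**
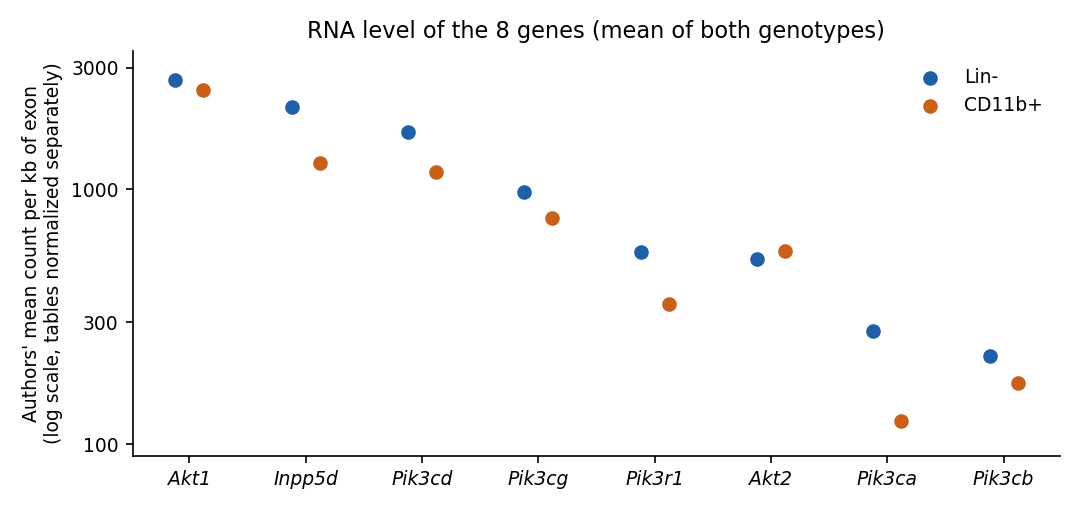
RNA level of the 8 genes, as the authors' mean normalized count per kb of exon on a log axis, in Lin- (blue) and CD11b+ (orange) cells. Akt1 is highest with 2691 and 2455, and the lowest value is that of Pik3ca in CD11b+ cells, 123.

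Of the 8 genes, 7 carried filtered IGF2BP3 peaks in both cell types, and Pik3cb carried none in any library. A filtered peak in any library was found on 26.5% of all genes listed for Lin- and 25.6% for CD11b+. In biological libraries alone, the members bound were 7 and 6, against 24.6% and 21.7% of all genes. Among genes with a mean of at least 10, the shares bound in any library were 39.8% and 37.1%, and among genes with a mean of at least 1000, as all 8 have, they were 76.5% and 68.4%, so 7 of 8 is near what genes of such levels showed. In at least 2 biological libraries, 7 of the 8 had peaks in Lin- cells (13.7% of all genes, 46.9% of those with a mean of at least 1000) and 5 of the 8 in CD11b+ cells (10.2% and 37.9%). Without Lin- libraries 2 and 5, 7 genes still had peaks. Over all libraries, the 8 genes held 96 filtered peaks in Lin- and 106 in CD11b+ libraries.

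**Figure D2:**
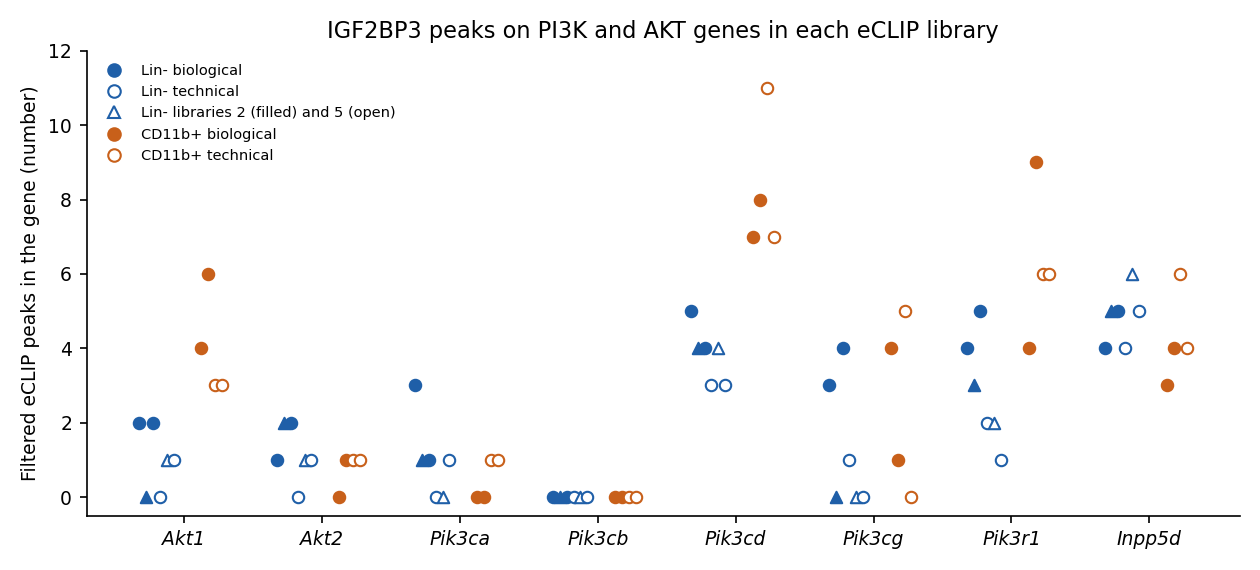
Number of filtered eCLIP peaks on each gene (vertical axis) in each library: Lin- in blue, CD11b+ in orange, biological libraries filled, technical libraries open, Lin- libraries 2 and 5 as triangles. Pik3cd sits at 3 to 5 peaks in Lin- and 7 to 11 in CD11b+ libraries, where split repeat peaks reduce to 3 to 5 distinct sites, and Akt1 at 0 to 2 and 3 to 6, while Pik3cb is at 0 throughout.

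Akt1 encodes a serine/threonine kinase that promotes growth and survival. It had 2, 0 and 2 filtered peaks in the 3 biological Lin- libraries and 0, 1 and 1 in the technical ones. In CD11b+ cells, it had 4 and 6 in the biological and 3 and 3 in the technical libraries, so the ranges did not overlap. In CD11b+ biological library 1, the strongest peaks were those of sites 6 and 4, with 18 and 16 reads. In the other CD11b+ libraries, they lay at the TG repeat of site 2, shown above, in an intron 4464 nt from the nearest splice site. The reads summed over its peaks were 14 and 63 in the biological and 32 and 45 in the technical libraries. In Lin- cells, a peak of 3 reads overlapped this site in biological library 1, and no other Lin- library had a peak there. The other 3 Lin- sites of Akt1 lay 81.7% to 93.2% of the way along the gene. Site 3, at a 3′ splice site, had 12 reads in biological library 1 and 8 in library 3, and a CD11b+ peak of 6 reads in technical library 4 overlapped it.

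Akt2 encodes the isoform best known for insulin-dependent glucose handling. Its filtered peaks numbered 1, 2 and 2 in the biological and 0, 1 and 1 in the technical Lin- libraries, and 0, 1, 1 and 1 in the CD11b+ libraries. The only CD11b+ site lay in the 5′ UTR and overlapped Lin- site 1, which was found in biological libraries 2 and 3 with 6 and 5 reads and in technical libraries 5 and 6 with 6 and 4 reads. The CD11b+ peaks there had 8 reads in biological library 2 and 9 and 3 in the technical libraries. It was the only exonic site that the cell types shared among these genes. Around the summit of its largest Lin- peak, this G-rich and C-rich 5′ UTR reads as follows, without any CACA and so with no capitals.
Akt2 site 1, chr7:27591697-27591726, plus strand: gggagggggcgggggggcccgcgctgcgcg

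Pik3cd encodes the delta catalytic subunit of lymphoid and myeloid cells and had the most peaks of the 8 genes over both cell types together. Filtered peaks numbered 5, 4 and 4 in the biological and 3, 4 and 3 in the technical Lin- libraries, against 7 and 8 in the biological and 11 and 7 in the technical CD11b+ libraries. The higher CD11b+ counts rest on long repeats that CLIPper split into adjacent peaks. Counted as distinct sites, the CD11b+ libraries had 3 and 3 in the biological and 5 and 3 in the technical libraries. These were within the 3 to 5 of all Lin- libraries, but the biological values were below the 5, 4 and 4 of the biological Lin- libraries. The places differed. Site 5 of the Lin- cells, at a 3′ splice site 79.8% of the way along the gene, had a peak in all 6 Lin- libraries, with 23, 28 and 23 reads in the biological and 3, 21 and 4 in the technical libraries. No CD11b+ library had a peak there. Of the 11 Lin- sites, 8 lay within 100 nt of a splice site, against 0 of the 7 CD11b+ sites.

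The CD11b+ peaks of Pik3cd lay in introns 12.1% to 44.7% of the way along the gene. At 2 of them, sites 3 and 5, the smInput filter decided in which libraries the peaks remained. The CA repeat of site 3, chr4:149694181-149694393, had peaks in all 10 eCLIP libraries before the filter. These summed to 55 and 203 reads in the biological and 79 and 162 in the technical CD11b+ libraries, and to 9 to 22 reads in the Lin- libraries. After the filter it was absent from CD11b+ library 1 and from all Lin- libraries except 2 and 5, and 32 of the 79 reads remained in CD11b+ library 3. Site 5, chr4:149684552-149684713, had 132, 163, 125 and 90 reads in the 4 CD11b+ libraries before the filter and remained only in libraries 1 and 3. In Lin- cells, it had 34 and 31 reads in libraries 2 and 5 and no peak in the others, filtered or not. Presence of these 2 sites after the filter is therefore no measure of a difference between libraries.

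Pik3cg encodes the gamma catalytic subunit, which acts downstream of G protein-coupled receptors. It had 3, 0 and 4 filtered peaks in the biological and 1, 0 and 0 in the technical Lin- libraries, and 4, 1, 5 and 0 in the CD11b+ libraries, so the ranges overlapped. Its sites did not: of 5 Lin- and 6 CD11b+ sites, 0 overlapped. Over all genes, only 24.9% of Lin- and 29.2% of CD11b+ sites overlapped the other cell type, so 0 of so few sites does not set Pik3cg apart. Lin- sites 2 and 4, at 3′ splice sites, had 6 and 6 reads and 4 and 5 reads in biological libraries 1 and 3, and site 2 also had 5 reads in technical library 4. CD11b+ site 3, a CA repeat, had 12 and 6 reads in the biological libraries and 11 in technical library 3.

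Pik3ca encodes the alpha catalytic subunit, often mutated in solid tumors. It had 3, 1 and 1 filtered peaks in the biological and 0, 0 and 1 in the technical Lin- libraries. In CD11b+ cells, both biological libraries had 0 and both technical libraries had 1, with 9 and 5 reads. The former reached across a 3′ splice site and overlapped Lin- site 5, which ended short of the exon. Of the 5 Lin- sites of Pik3ca, 4 lay within 100 nt of a splice site, and site 4 was found in 2 biological libraries with 6 and 5 reads. Pik3cb, the beta catalytic subunit, had no peak in any eCLIP or smInput library. Its level per kb was below that of Pik3ca in Lin- cells (222 against 278) and above it in CD11b+ cells (174 against 123). CLIPper listed no peak under 3 reads, so weaker coverage of Pik3cb would not be listed.

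Pik3r1 encodes the regulatory subunit that stabilizes and restrains the catalytic subunits. It had 4, 3 and 5 filtered peaks in the biological and 2, 2 and 1 in the technical Lin- libraries, and 4, 9, 6 and 6 in the CD11b+ libraries. The ranges overlapped at 4 and 5. Its 10 sites in each cell type shared 6 places, more than those of any other member. The CA repeat of CD11b+ site 4, Lin- site 3, had peaks in all 4 CD11b+ libraries, with 10, 30, 4 and 16 reads, and in 5 of 6 Lin- libraries, with 4 to 12 reads. The adjacent TG repeat of CD11b+ site 5 had 22, 29, 11 and 30 reads in the CD11b+ libraries, and 6 and 5 reads in Lin- libraries 1 and 4. All 10 CD11b+ sites lay over 1000 nt from a splice site and over 50% within masked repeats. Site 10 of the Lin- cells, at a 3′ splice site near the end of the gene, had 11 and 3 reads in biological libraries 1 and 3 and 3 in technical library 6, and no CD11b+ library had a peak there.

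Inpp5d, the phosphatase that limits PI3K signaling in blood cells, had the most Lin- sites. Filtered peaks numbered 4, 5 and 5 in the biological and 4, 6 and 5 in the technical Lin- libraries, and 3, 4, 6 and 4 in the CD11b+ libraries, so the ranges overlapped. Near the 3′ end, site 14 had 18, 10 and 5 reads in the biological and 7 and 8 in technical libraries 4 and 6 of the Lin- cells, and site 11 had 11 and 5 in biological libraries 1 and 2 and 7 and 7 in technical libraries 4 and 5. No CD11b+ library had a peak at either. The CD11b+ sites 2 to 6 were 5 CA repeats, each overlapped by a Lin- site. At site 3, the CD11b+ libraries had 54 reads in biological library 2, 8 and 32 in the technical libraries and no peak in biological library 1, and Lin- library 2 had 8. At site 6, all 4 CD11b+ libraries had a peak of 15 to 37 reads before the filter, but libraries 2 and 4 lost it to the filter.

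**Figure D3:**
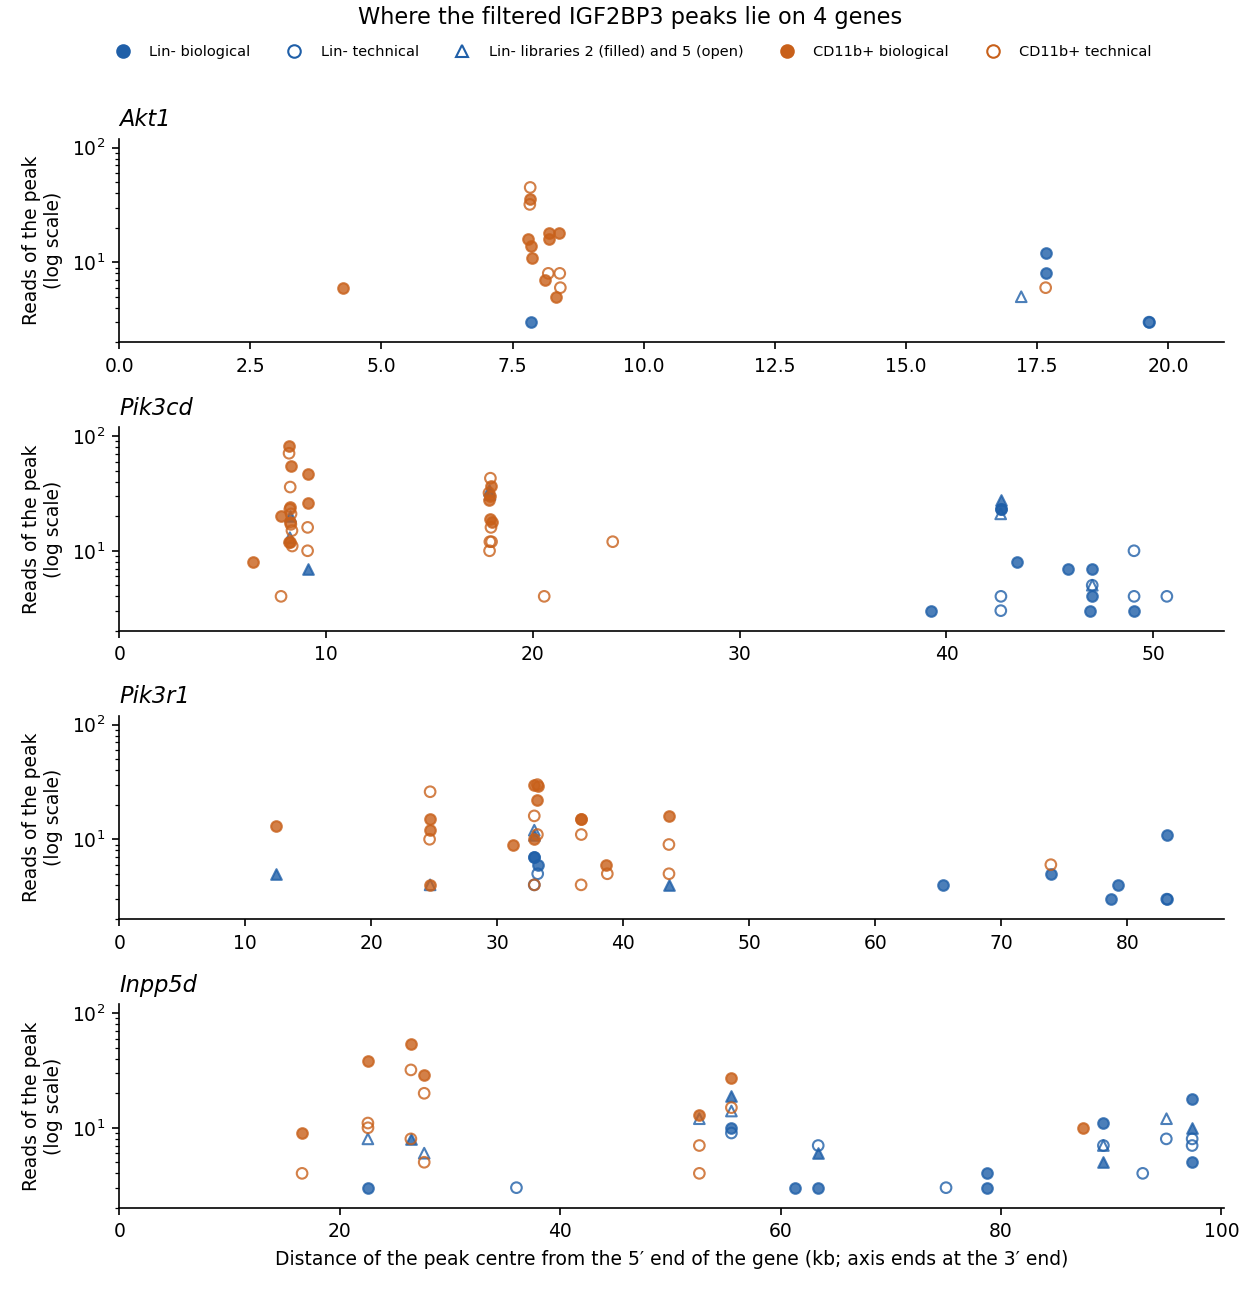
Filtered peaks on Akt1, Pik3cd, Pik3r1 and Inpp5d, by distance of the peak centre from the 5′ end of the gene in kb (horizontal axis) and by reads of the peak (vertical axis, log scale), with colors and symbols for cell type and library. Several Lin- peaks (blue) lie toward the 3′ end, as at Pik3cd site 5, 79.8% of the way along, whereas on Pik3r1 many share places with CD11b+ peaks (orange), as at 37.6%, and Lin- libraries 2 and 5 (triangles) are present at several of the CD11b+ places.

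Over all members, 47 of 52 Lin- sites and 39 of 40 CD11b+ sites were centred in introns. The distance to splice sites separated the cell types. Of the Lin- sites, 33 of 52 (63.5%) lay within 100 nt of a splice site, and for 27 of these the nearest was a 3′ splice site. The 26 that were centred in the intron lay 9 to 49 nt from it, with a median of 21 nt, and 20 of them reached into the exon. Of the CD11b+ sites, 3 of 40 (7.5%) were within 100 nt of a splice site. Among sites of all genes, the shares were 66.5% in Lin- and 21.9% in CD11b+ cells, so the Lin- share of these genes was near that of all genes and the CD11b+ share was below it. No test was made of that difference. Among sites found in at least 2 biological libraries, 12 of 15 in Lin- cells and 0 of 8 in CD11b+ cells were near a splice site. This rule asks for a peak in every biological CD11b+ library but not in every Lin- one, and no share of all genes is given for it. Without Lin- libraries 2 and 5, the Lin- share was 30 of 40 (75.0%), and in these 2 libraries alone it was 9 of 22 (40.9%). Because 28 of the 52 Lin- sites touched an exon, the count of intronic sites depends on taking the centre: 24 touched no exon, against 37 of 40 in CD11b+ cells.

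By library, 70.0% to 83.3% of the members' peaks were near a splice site in Lin- libraries 1, 3, 4 and 6, and 40.0% and 35.7% in libraries 2 and 5. The CD11b+ libraries had 0.0% to 4.55%, so no Lin- library overlapped them. Each library rests on few peaks, and adjacent peaks of a split repeat count separately. In Lin- biological library 1, 18 of 22 peaks gave 81.8% with a 95% Wilson interval of 61.5% to 92.7%, and in CD11b+ biological library 2, 0 of 29 allowed up to 11.7%. These intervals cover counting error only. Over all genes, the shares by library were 45.5% to 75.9% in Lin- and 14.4% to 22.7% in CD11b+ cells. The median position of the members' peaks, from 0% at the gene's 5′ end, was 79.3% to 87.2% in Lin- libraries 1, 3, 4 and 6, 49.8% and 45.0% in libraries 2 and 5, and 27.0% to 37.6% in the CD11b+ libraries, against 47.6% to 61.5% and 43.9% to 49.1% for all genes.

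Repeats and CA motifs ran the other way. Of the CD11b+ sites, 29 of 40 (72.5%) were over 50% soft-masked repeat in the genome sequence, against 57.4% of sites of all genes. In Lin- cells, it was 21 of 52 (40.4%) against 23.5%, and 13 of 40 (32.5%) without libraries 2 and 5. The 6-letter motifs ACACAC or CACACA, on the RNA strand, were in 12 of 40 CD11b+ sites (30.0%, all genes 17.2%) and 9 of 52 Lin- sites (17.3%, all genes 8.42%), or 5 of 40 (12.5%) without libraries 2 and 5. These motifs overlap each other within a repeat. Their reverse complements GTGTGT or TGTGTG were in 9 CD11b+ sites (22.5%, all genes 24.3%) and 10 Lin- sites (19.2%, all genes 8.2%), and 0 sites held motifs of both kinds. How far reads can be placed uniquely within such repeats was not tested. Of the sites, 18 overlapped a site of the other cell type, 34.6% of the Lin- and 45.0% of the CD11b+ sites, against 24.9% and 29.2% for all genes. Without libraries 2 and 5, 9 of 40 Lin- sites (22.5%) did.

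**Figure D4:**
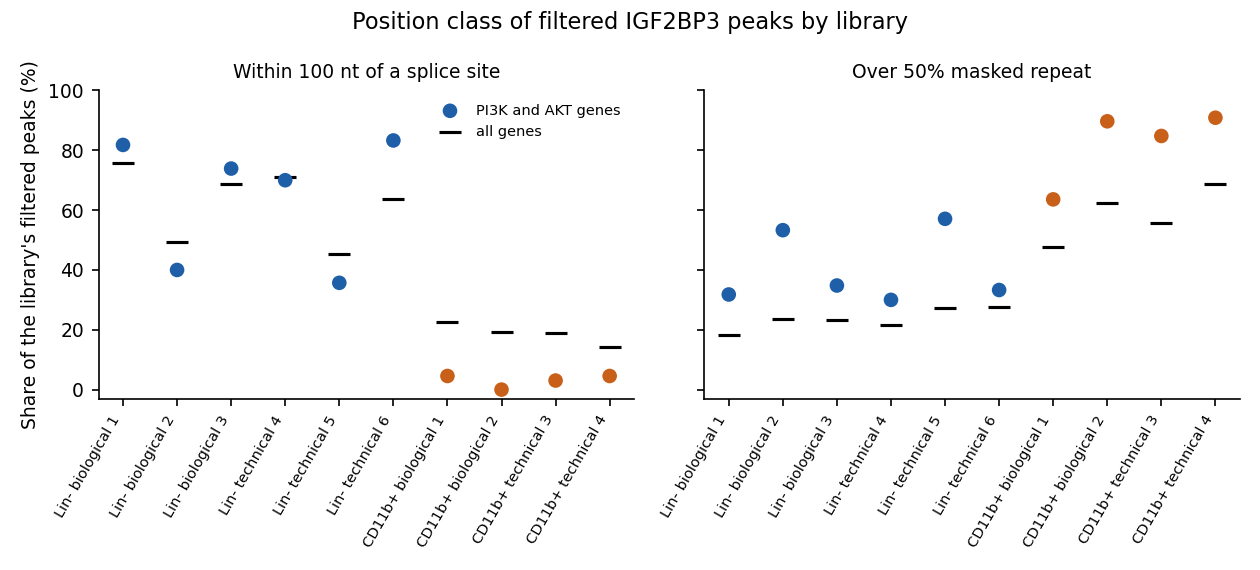
Share of each library's filtered peaks that lie within 100 nt of a splice site (left) or are over 50% masked repeat (right), in percent, for the 8 genes (points, blue for Lin- and orange for CD11b+) and for all genes (black bars). The CD11b+ points lie at 0.0% to 4.55% on the left and 63.6% to 90.9% on the right, and Lin- biological 2 and technical 5 lie between the cell types.

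To ask whether the peaks depended on the immunoprecipitation, peaks before the filter were compared between the 5 biological eCLIP libraries and the smInput libraries of the same numbers. Pik3cd had 7.0 ± 3.16 peaks per eCLIP library, split repeat peaks included, against 0.6 ± 0.548 per smInput library (mean ± SD, n = 5 each, both cell types pooled). Pik3r1 had 5.0 ± 2.35 and Inpp5d 4.4 ± 0.894 against 0. For these 3 genes, every eCLIP library was above every smInput library, which held for 10.1% of the 10389 genes compared, and the two-sided exact permutation p was 0.00794, the smallest that 5 against 5 libraries allow. Akt1 (2.8 ± 2.28), Akt2 (1.2 ± 0.837) and Pik3cg (2.4 ± 1.82), with 0 peaks in smInput, had an exact permutation p of 0.0476, and Pik3ca (1.0 ± 1.22) had 0.167. After Benjamini-Hochberg adjustment over all genes, 0 genes (0.0%) passed 0.05, whereas 2435 had an unadjusted p below 0.05. The adjusted exact permutation p was 0.0719 for Pik3cd, Pik3r1 and Inpp5d, 0.203 for Akt1, Akt2 and Pik3cg, and 0.432 for Pik3ca. These tests ignore the pairing by number. An exact test that swaps eCLIP and smInput only within pairs gave a paired p of 0.0625 for Pik3cd, Pik3r1 and Inpp5d, the smallest that 5 pairs allow. It gave 0.125 for Akt1, Akt2 and Pik3cg and 0.25 for Pik3ca. The adjusted paired p from this test was 0.635 for Pik3ca and 0.515 for the others. smInput libraries held far fewer peaks in all and were called with other settings than eCLIP libraries, and per 1000 peaks of the library the adjusted exact permutation p was 0.474 for Pik3cd and 0.0634 for Pik3r1 and Inpp5d.

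The filter itself removed 4 of 100 member peaks in Lin- cells (4.0%, against 16.9% of peaks of all genes) and 12 of 118 in CD11b+ cells (10.2%, against 13.6%). All 16 overlapped Pik3cd sites 3 and 5 or Inpp5d site 6 of the CD11b+ numbering. The smInput peaks assigned to the members were 10 in all, of 3 to 8 reads, on Pik3cd, Inpp5d and Pik3r1.

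The number of filtered peaks per gene was then compared between the biological libraries of the 2 cell types. Akt1 had 1.33 peaks per Lin- library and 5.0 per CD11b+ library, and Pik3cd 4.33 and 7.5. For these 2 genes, both CD11b+ libraries were above all 3 Lin- libraries, as for 9.28% of the 9290 genes compared. The exact permutation p was 0.1 for each, the smallest that 3 against 2 libraries allow, and so no gene could pass 0.05. For Pik3cd, the direction turned when distinct sites were counted, with 4.33 per Lin- and 3.0 per CD11b+ library. All 3 Lin- libraries were then above both CD11b+ libraries, as for 6.18% of genes, with an exact permutation p of 0.1. The direction also turned without sites 3 and 5, with 3.67 and 2.0 peaks, where the groups overlapped. Akt1 had 1.33 and 4.0 distinct sites. Both CD11b+ libraries were again above all 3 Lin- libraries, as for 8.99% of genes by this count. Pik3ca, at 1.67 and 0.0, was higher in all Lin- libraries, as 6.31% of genes were, with an exact permutation p of 0.3. Akt2 (1.67 and 0.5), Pik3cg (2.33 and 2.5), Pik3r1 (4.0 and 6.5) and Inpp5d (4.67 and 3.5) overlapped between the cell types. Per 1000 filtered peaks of the library, Akt2 (0.188 and 0.0497) and Inpp5d (0.539 and 0.375) were higher in all Lin- libraries, each with an exact permutation p of 0.1. On this scale, 1856 of the 9290 genes did not overlap between the cell types in either direction, against 1448 on peak counts.

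Of 46 further genes of the pathway, 28 (60.9%) carried filtered peaks in Lin- and 35 (76.1%) in CD11b+ libraries, with 26.5% and 25.6% of all genes as above. Among genes with a mean of at least 10, the shares were 39.8% and 37.1%, and at 1000 they were 76.5% and 68.4%. The 46 genes were not matched to other genes by level, so whether the pathway differs from genes of like level was not tested. In at least 2 biological libraries, the order turned, with 23 genes in Lin- and 12 in CD11b+ libraries. The shares of all genes were 13.7% and 10.2% by this rule, and 46.9% and 37.9% at a mean of at least 1000. The rule asks for a peak in every biological library of the CD11b+ cells, but not in every one of the Lin- cells. The turn is therefore no measure of a difference between the cell types. In Lin- cells, genes with many sites were Plcg2, a phospholipase of receptor signaling (8), the transcription factor Foxo3 (7), Pdpk1, the kinase that activates AKT (6), and the S6 kinase gene Rps6kb1 (6). In CD11b+ cells, they were Pdpk1 (12), Foxo3 (11), the lipid phosphatase Inpp4a (9), Plcg2 (8) and the adaptor Gab2 (7). Pdpk1, Foxo3 and Plcg2 were in both groups. The regulatory subunits of Pik3cg, Pik3r5 and Pik3r6, had 4 and 5 sites in CD11b+ cells and 0 in Lin- cells. Both were picked from the list after their values were seen. Their means were 1237 and 491 in the Lin- table and 1161 and 1527 in the CD11b+ table. Other genes of the list went the other way, as Inpp4b with 3 sites in Lin- and 0 in CD11b+ cells, at means of 636 and 8.

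Among 2053 other genes with at least 10 filtered peaks, the numbers of peaks most like those of Pik3cd across the 10 eCLIP libraries were those of Tnfrsf21 (Pearson r = 0.968), Ifnar1 (0.966) and Nrg2 (0.966). The 10 libraries form 2 cell types, include technical replicates and share their depth among genes, and the counts of Pik3cd hold the split repeat peaks, so these values are a description.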

How the data were processed

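For eCLIP, the authors called peaks per library with CLIPper on mm10 and removed peaks overlapping smInput peaks. The deposited value of each peak is read as its CLIPper p-value, at most 0.05. For RNA-seq, the authors mapped reads with STAR (2.5.3a in the submitters' processing notes), masked repeats with Bowtie2 and RepeatMasker, and deposited a DESeq2 table per cell type. Its mean normalized count, a signal in size-factor units that the authors computed over all 6 libraries, was the only column used. The fold changes, standard errors and p-values of I3KO against WT in these tables were not used, so genotypes are not compared here and the knockout is not checked.

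Peaks were assigned by Ensembl ID, merged per cell type where they overlapped or touched, and placed by their centre on GENCODE M21 (basic). Exact permutation tests on peaks per gene were run over all genes, two-sided, with Benjamini-Hochberg adjustment, and were tested on simulated data (Python 3.11.15, NumPy 2.4.6, pandas 2.3.3, SciPy 1.17.1, pysam 0.24.0). Where labels do not say that libraries came from separate animals, p-values measure the spread between these libraries. Technical libraries entered no test. eCLIP and smInput libraries of the same number are paired, since the input was taken from the same sample per the supplementary methods. The correlation of their deviations from the group means was -0.04 to 0.012.

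Named genes are the 8 members, the 5 genes of the wider list with most sites per cell type, and the 3 genes most like the member with most peaks. Some of the genes and sequences this rule takes are not reported here. Pik3r5, Pik3r6 and Inpp4b were added after their values were seen. Members and lists were chosen with earlier results of these data known.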

Additional observations from a re-analysis of the deposited data

Results flagged for a closer look

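Few smInput peaks fell on the members, and in 5 of 7 groups of smInput libraries with any spread, a single library stood apart by Dixon's test at 95%. With counts this low, a single peak is enough where the other libraries are tied. The nominal rate of 1 in 20 groups therefore does not hold here, and 5 of 7 cannot be read as an excess. In Lin- cells, smInput library 4 had 2 peaks on Inpp5d and 3 on all members, more than the other 5. In CD11b+ cells, smInput library 4 had 1 peak on Pik3r1 and 1 on Inpp5d where the other 3 had 0, and smInput library 3 had 0 on Pik3cd where the other 3 had 1.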

How the results depend on the processing

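Of the results recomputed, those on bound members did not change by over 1.5 times: 7 in Lin- cells under every alternative, and 5 to 7 in CD11b+ cells, where leaving out a biological library gave 5 to 6. With a peak p below 0.001, Lin- sites fell from 52 to 25. Counting any overlap with an exon left 24 of 47 Lin- sites intronic, and CACA in place of the 6-letter motifs gave 15 Lin- sites in place of 9. Of alternatives chosen after seeing the data, sites near a splice site numbered 9 in Lin- libraries 2 and 5 alone (33 in all 6), and in CD11b+ cells 1 in biological libraries and 5 within 200 nt (3 in the main setting), while peaks before the filter gave 33 and 3. The share of all genes bound rose to 39.8% and 37.1% at a mean of at least 10, and to 76.5% and 68.4% at 1000. Genes whose libraries did not overlap between cell types numbered 1448, 1963 to 3002 with a library left out (3002 without CD11b+ replicate 1 and 2693 without replicate 2, where 1 library remains), and 474 with technical libraries included. Pik3cd, Lin- minus CD11b+, was -3.17 peaks and turned to 1.33 with distinct sites in place of peaks and to 1.67 without sites 3 and 5, before or after the smInput filter, alternatives also chosen after seeing the data. Pik3cg, Lin- minus CD11b+, was -0.167 peaks and turned to 0.00493 per 1000 filtered peaks, 1.0 without Lin- replicate 2 and 1.33 without CD11b+ replicate 1 (from -1.67 to 1.33 over each library left out), and the cause was not tested. The fit with the replicate block (eCLIP paired with smInput of the same number) called 0 genes, since 5 pairs cannot give a p below 0.0625, and it changed no other call. Peak lists hold nothing under 3 reads, which limits what can be seen on genes of low level.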
